A study of Rattus norvegicus with 15 samples.

Results

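The 9 genes described here encode the transcription factors that set and hold hepatocyte identity: Hnf4a, Foxa1, Foxa2, Foxa3, Cebpa, Cebpb, Onecut1, Prox1 and Gata4. They were chosen by name, as every probe of the array whose gene name is one of these symbols, which gave 16 of 45598 probes and 9 of 36181 named features. That rule uses gene names and no measured value. Hepatocytes were isolated from female Wistar rats in 5 independent experiments, stained with the DNA dye Hoechst33342 and sorted by flow cytometry into fractions whose cells hold a 2c, 4c or 8c amount of DNA. Each experiment gave 1 array of each fraction, so each group holds 5 arrays. The rats were 12 weeks old in experiment 1, 14 weeks in experiment 2, 6 weeks in experiment 3, 5 weeks in experiment 4 and 6 weeks in experiment 5. No group carried a mutation or a treatment beyond isolation, staining and sorting. The labels give neither the number of animals behind an experiment nor the sort gates, and DNA content alone does not tell a cell with 2 diploid nuclei or a 2c cell after DNA synthesis from a cell with 1 tetraploid nucleus.

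Hepatocyte identity rests on a network of factors that bind the same enhancers and promoters and keep each other expressed. Pioneer factors of the FOXA family open chromatin that other factors cannot bind alone, HNF4A then occupies a large share of the active liver enhancers, and C/EBP factors, HNF6 and PROX1 act beside it on metabolic and secretory genes. Polyploid hepatocytes, which arise after birth when a cell replicates its DNA without dividing, carry more copies of each of these genes, and the comparison asks whether the transcripts of the network keep their place among all transcripts of the cell.

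A level is log2 of the background-subtracted spot intensity minus the array's 75th percentile over 16211 probes that were well above background on all 15 arrays. A level of 0 thus equals that percentile, and every test compared the same probe or probes between arrays. Levels of different probes are set side by side only as a description. A level states the share of a transcript in the RNA put on the array, so fewer cells of a type and less RNA per cell cannot be told apart, and a transcript that increases in step with all others shows no difference. All 16 probes of the 9 genes were well above background on all 15 arrays. Of the hepatocyte markers, 12 of 12 were well above background on every array. In 8c against 2c cells 1 of the 12 fell, the pericentral cytochrome gene Cyp2e1 (log2 difference -0.51, limma adjusted p = 0.0297), beside 1.56% of all tested features. With any 1 of the 5 experiments left out, the Cyp2e1 call was lost (limma adjusted p = 0.0532 to 0.150).

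None of the 9 factors passed the test between any pair of fractions. In the limma fit with the experiment as a block, 0 of 9 passed for 8c against 2c, where 2.37% of the 17055 tested features passed at an adjusted p under 0.05. For 4c against 2c, 0 of 9 passed against 1.27% of all features, and for 8c against 4c it was 0 of 9 against 0.651%. At an unadjusted p under 0.05 the members' counts were also 0, 0 and 0 of 9, where 15%, 15.9% and 7.76% of all features were under that value. In each comparison the level ranges of the groups overlapped for all 9 members, while they did not overlap for 1.36%, 1.32% and 0.557% of all features. The median absolute log2 difference of the members was 0.11 for 8c against 2c, 0.12 for 4c against 2c and 0.08 for 8c against 4c, beside 0.12, 0.13 and 0.10 over all features. With shares this small, 0 of 9 is close to the background and sets the members apart in neither direction. The arrays lay on 2 slides. With the slide as the block 0 of 9 passed in each comparison, and the same held within slide 1 and within slide 2, where at most 1 of all features passed. For 8c against 2c the values with the slide as the block, within slide 1 and within slide 2 were 0.06, 0.11 and 0.09 for Hnf4a, 0.26, 0.08 and 0.38 for Foxa1, and -0.30, 0.64 and -0.85 for Foxa3.

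**Figure D1:**
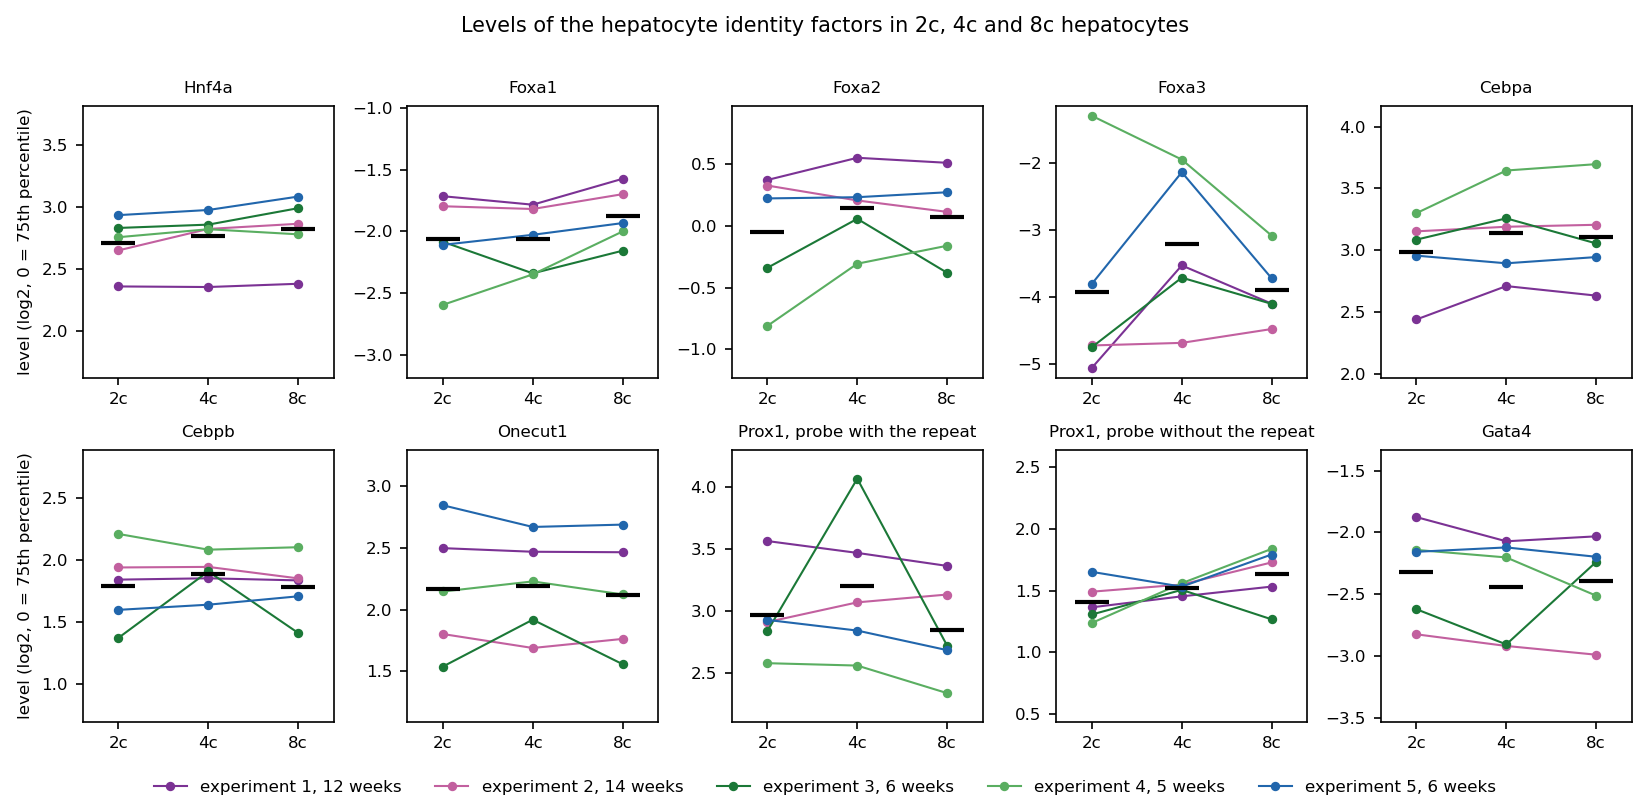
Level of each factor (log2, 0 is the array's 75th percentile) in the 2c, 4c and 8c fractions. Each line is 1 experiment with its 3 arrays and each black bar is the mean of 5 arrays. Prox1 has a panel for each of its probes. The vertical axes differ in place between panels, and that of Foxa3 also spans a wider range than the others. For Hnf4a, Cebpa and Onecut1 the experiments lie further apart than the fractions, with some lines crossing, and the Prox1 probe with the repeat reaches 4.07 on the 4c array of experiment 3.

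The probes are 60 bases long, and their sequences matter here because several genes have probes that disagree. Positions are those of the rn4 assembly in the files, and whether a probe lies in coding or untranslated sequence is not known here. The first 3 sequences are the Hnf4a probes, in order from the 3′ end of the transcript towards its 5′ end.
Hnf4a A_44_P1088746: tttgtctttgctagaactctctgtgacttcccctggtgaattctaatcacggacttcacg
Hnf4a A_44_P1104210: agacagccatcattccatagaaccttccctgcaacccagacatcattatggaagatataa
Hnf4a A_64_P046573: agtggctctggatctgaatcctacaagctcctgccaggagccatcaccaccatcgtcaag
They lie on the plus strand at chr3:154485383-154485442, chr3:154483987-154484046 and chr3:154482715-154482774. The next pair belongs to Cebpa, on the plus strand at chr1:87628721-87628780 and chr1:87627393-87627452. It is shown because the fitted 8c against 2c differences of its 2 probes had opposite signs, 0.12 and -0.17.
Cebpa A_44_P1088296: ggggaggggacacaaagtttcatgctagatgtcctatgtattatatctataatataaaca
Cebpa A_64_P025108: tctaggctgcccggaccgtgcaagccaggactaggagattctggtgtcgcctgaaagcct
The Prox1 probes lie on the minus strand at chr13:106421687-106421746 and chr13:106417885-106417944, and capitals mark a run of 32 bases of the TG dinucleotide repeat in the first.
Prox1 A_64_P164271: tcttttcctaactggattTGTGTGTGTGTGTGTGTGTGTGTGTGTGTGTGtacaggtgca
Prox1 A_42_P737489: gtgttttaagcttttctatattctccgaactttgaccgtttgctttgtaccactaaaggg
Of the 16 probes, 1 carries such a repeat. The brightest probe of a gene stands for it in the fit, which is the first of each set above.

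Hnf4a encodes the nuclear receptor HNF4A, the most widely bound activator of apolipoprotein, coagulation and bile acid genes in the liver. Its levels in experiments 1 to 5 were 2.36, 2.65, 2.83, 2.75 and 2.93 in 2c cells, 2.35, 2.82, 2.86, 2.82 and 2.98 in 4c cells, and 2.38, 2.86, 2.99, 2.78 and 3.08 in 8c cells. The 8c array was above the 2c array in 5 of 5 experiments, by 0.02 to 0.22, while the arrays of experiment 1 were the lowest of all 3 fractions. The mean was 2.82 ± 0.27 in 8c cells and 2.70 ± 0.22 in 2c cells (SD, n = 5 each), a difference of 0.11 (SE 0.058, 95% interval -0.016 to 0.24, limma adjusted p = 0.398). That interval holds ratios of 8c to 2c between 0.989 and 1.18. A common direction in all 5 experiments was found for 15.3% of all features in this comparison.

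The other Hnf4a probes did not repeat that order. The middle probe, 1396 bases from the first, averaged -1.97 ± 0.19 in 8c cells and -1.79 ± 0.30 in 2c cells, and was higher in 8c in 2 of 5 experiments. Its 2c array of experiment 4, at -1.25, lay above its 4 other 2c arrays, which ran between -1.98 and -1.87. The probe nearest the 5′ end averaged -2.33 ± 0.26 in 8c cells and -2.40 ± 0.10 in 2c cells, higher in 8c in 3 of 5 experiments. In a fit with every tested probe on its own, the 8c against 2c differences of the 3 probes were 0.11, -0.18 and 0.07, with adjusted p of 0.415, 0.607 and 0.809. Over that fit, 2.23%, 0.973% and 0.606% of 20957 probes passed in the 3 comparisons, and 0 of the 16 probes of the members did.

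The forkhead factors FOXA1, FOXA2 and FOXA3 share a DNA-binding domain that resembles linker histone, and in mice they act in part redundantly in the liver. Foxa1 had levels of -1.72, -1.80, -2.08, -2.59 and -2.11 in 2c cells, -1.78, -1.82, -2.34, -2.35 and -2.03 in 4c cells, and -1.57, -1.70, -2.16, -2.00 and -1.93 in 8c cells. The 8c array exceeded the 4c array in all 5 experiments, by 0.09 to 0.35, and the 2c array in 4 of 5. The difference was 0.19 for 8c against 4c (SE 0.089, 95% interval -0.0079 to 0.39, limma adjusted p = 0.640) and 0.19 for 8c against 2c (interval -0.012 to 0.39, adjusted p = 0.366). Without experiment 4 the 8c against 2c difference was 0.09. A common direction for 8c against 4c in all 5 experiments was found for 13.5% of all features. The files place the 2 Foxa1 probes 29049 bases apart, and the position of neither was checked here. The second Foxa1 probe differed by -0.04 for 8c against 4c and by 0.10 for 8c against 2c.

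Foxa2 varied more between experiments than between fractions. Its levels were 0.37, 0.32, -0.34, -0.81 and 0.22 in 2c cells, 0.55, 0.20, 0.06, -0.31 and 0.23 in 4c cells, and 0.51, 0.11, -0.38, -0.16 and 0.27 in 8c cells. Experiments 1, 2 and 5 stood above 0 in every fraction, and the 2c array of experiment 4 was the lowest of the 15. The difference was 0.12 for 8c against 2c (SE 0.119, limma adjusted p = 0.706) and 0.19 for 4c against 2c (adjusted p = 0.460). Without the 2c array of experiment 4 they were 0.01 and 0.09.

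Foxa3 had the widest spread of the set, over a range of 3.74 log2 units across the 15 arrays. Its levels were -5.05, -4.72, -4.74, -1.30 and -3.80 in 2c cells, -3.53, -4.68, -3.71, -1.95 and -2.14 in 4c cells, and -4.10, -4.47, -4.10, -3.08 and -3.72 in 8c cells. The low end of that range was dim. On the 2c array of experiment 1 Foxa3 was at -5.05, and the dimmest probe well above background was at -6.46. The 4c array was above the 2c array in experiments 1, 2, 3 and 5, by 0.04 to 1.66, and below it in experiment 4, by 0.65. Within experiment 4 the level dropped by 1.78 in 8c cells relative to 2c cells, while it was higher in 8c than in 2c cells in the other 4 experiments. The difference was 0.72 for 4c against 2c (SE 0.372, 95% interval -0.11 to 1.55, limma adjusted p = 0.380), -0.69 for 8c against 4c (adjusted p = 0.672) and 0.03 for 8c against 2c (interval -0.80 to 0.86, adjusted p = 0.981). Leaving out the 2c array of experiment 4 moved 4c against 2c to 1.12 with an adjusted p of 0.0620, the lowest that any member had under any alternative, and 8c against 2c to 0.43. Over 20 alternatives the 4c against 2c difference ran from 0.21 to 1.12. The Foxa3 probe lies on the minus strand at chr1:78368067-78368126, and it is the single probe of the gene.

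**Figure D2:**
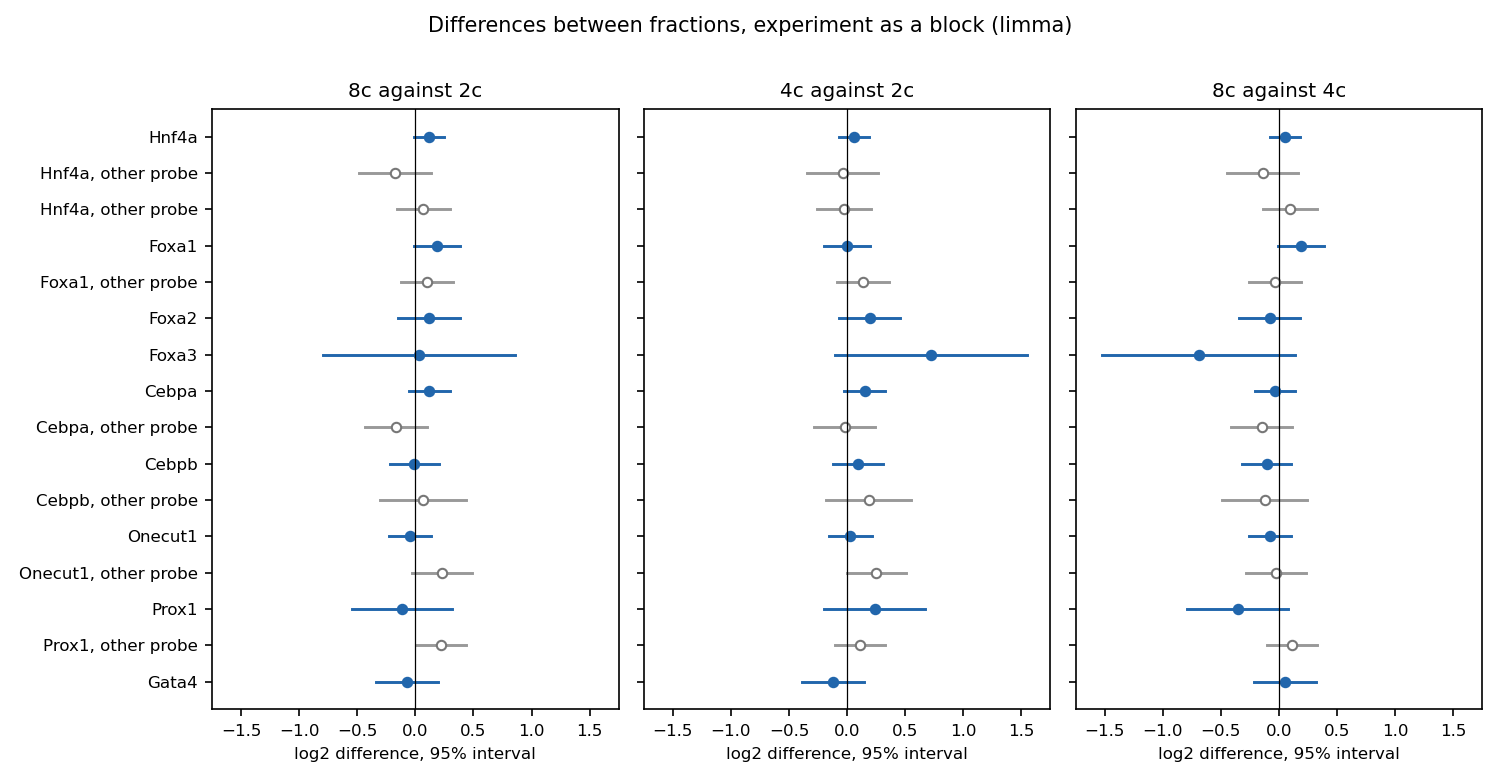
Log2 difference between fractions with its 95% interval (limma, experiment as a block, n = 5 arrays a fraction); filled circles are the probe that stands for a gene and open circles are other probes of the gene. The interval of the Prox1 probe without a repeat lies just above 0 for 8c against 2c, with a lower end of 0.0065 before any adjustment, and the intervals of all other probes cross 0; the widest belong to Foxa3.

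The 2c array of experiment 4 also differed from the other arrays in how signal ran along transcripts. Over 1640 genes with probes at least 300 bases apart, the median log2 ratio of the 3′ probe to the 5′ probe, taken about each gene's mean, was -0.17 on that array, the lowest of 15. It was 0.11 on the 8c array of the same experiment, the highest of 15, and between -0.09 and 0.09 on the arrays of the other experiments. On that 2c array Foxa3, the middle Hnf4a probe, the 5′ probe of Cebpa and the 3′ and 5′ probes of Cebpb were each at their highest level of all 15 arrays. Foxa1, Foxa2 and the Prox1 probe without a repeat were at their lowest there. The part of this index in the members' differences was not tested.

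The bZIP factor CEBPA drives gluconeogenic and urea cycle genes and restrains hepatocyte proliferation. Cebpa had levels of 2.44, 3.15, 3.09, 3.30 and 2.96 in 2c cells, 2.71, 3.19, 3.26, 3.65 and 2.89 in 4c cells, and 2.63, 3.21, 3.06, 3.70 and 2.94 in 8c cells. Experiment 1 was lowest and experiment 4 highest in every fraction. The difference was 0.12 for 8c against 2c (SE 0.079, 95% interval -0.055 to 0.30, limma adjusted p = 0.530), higher in 3 of 5 experiments, and 0.15 for 4c against 2c (adjusted p = 0.381). Without experiment 4 the 8c against 2c difference was 0.05. The second Cebpa probe, 1328 bases towards the 5′ end, differed by -0.17 for 8c against 2c and was lower in 8c in 4 of 5 experiments. Across the 15 arrays, which share their experiments, the 2 probes had a Pearson r of 0.74 in level and of -0.58 once the experiment means were removed. The widest 8c against 2c gap of each probe was that of experiment 4, at 0.40 and -0.67.

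CEBPB is the bZIP factor of the acute phase and of regeneration. Cebpb, whose probe was printed in 10 spots on each array with a median spread between spots of 0.068 log2 units (SD), had levels of 1.84, 1.94, 1.37, 2.21 and 1.60 in 2c cells, 1.85, 1.95, 1.91, 2.09 and 1.64 in 4c cells, and 1.84, 1.85, 1.41, 2.11 and 1.71 in 8c cells. The 4c array of experiment 3 stood 0.54 above the 2c array of that experiment, while in experiments 1, 2, 4 and 5 the same difference ran from -0.13 to 0.04. Experiment 4 was the highest in each fraction. For 8c against 2c the difference was -0.01 (SE 0.095, 95% interval -0.22 to 0.20, limma adjusted p = 0.975). By this probe the interval holds ratios of 8c to 2c between 0.857 and 1.15. The second Cebpb probe, 481 bases towards the 5′ end, differed by 0.065 (SE 0.165, limma adjusted p = 0.898). Its interval was wider, with ratios between 0.811 and 1.35, and its differences within experiments ran from -0.65 to 0.84.

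Onecut1 encodes HNF6, a cut-homeodomain factor of hepatocytes and bile duct cells. It had levels of 2.50, 1.80, 1.54, 2.15 and 2.84 in 2c cells, 2.47, 1.69, 1.92, 2.23 and 2.67 in 4c cells, and 2.46, 1.76, 1.56, 2.12 and 2.69 in 8c cells. The experiments kept nearly the same order in every fraction, with experiment 5 highest, and the difference for 8c against 2c was -0.05 (SE 0.082, 95% interval -0.23 to 0.14, limma adjusted p = 0.848). The second Onecut1 probe, 6683 bases towards the 3′ end, was higher in 4c than in 2c cells in 5 of 5 experiments, by 0.25 (SE 0.116, limma adjusted p = 0.330), and in 4 of 5 for 8c against 2c, by 0.23 (adjusted p = 0.399). A common direction in all 5 experiments for 4c against 2c was found for 13.9% of all features.

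Prox1, a homeodomain factor of hepatocytes and of lymphatic endothelium that represses bile acid synthesis together with HNF4A, gave a different reading from each probe. The probe with the TG repeat had levels of 3.56, 2.91, 2.84, 2.58 and 2.93 in 2c cells, 3.47, 3.07, 4.07, 2.56 and 2.84 in 4c cells, and 3.36, 3.13, 2.72, 2.33 and 2.68 in 8c cells. The 4c array of experiment 3 stood above the 14 others, and 8c was below 2c in 4 of 5 experiments, with a fitted difference of -0.12 (SE 0.195, 95% interval -0.55 to 0.32, limma adjusted p = 0.839). The probe without a repeat, 3802 bases away, had levels of 1.36, 1.49, 1.31, 1.24 and 1.65 in 2c cells, 1.45, 1.55, 1.51, 1.56 and 1.53 in 4c cells, and 1.53, 1.73, 1.27, 1.84 and 1.79 in 8c cells. Here 8c exceeded 2c in 4 of 5 experiments, by 0.22 in the fit of single probes (SE 0.096, unadjusted p = 0.0446, limma adjusted p = 0.321), and the 4c array of experiment 3 lay within the range of the other 4c arrays. The widest gap between 8c and 2c, 0.60, was that of experiment 4. The 2 Prox1 probes had a Pearson r of 0.18 over the 15 arrays after the experiment means were removed.

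The repeat probe moved with other probes that hold the same repeat. Of the 20 probes most like it within experiments, 18 carried a TG repeat of at least 20 bases, with r between 0.968 and 0.999, against 0 of the 20 most like the probe without a repeat. The 32 other probes with such a repeat had a median r of 0.98 with it, while the 16157 probes with neither this repeat nor its complement had a median r of -0.018. Both genes nearest to Prox1 by this measure, LOC102556477 (r = 0.999) and Crispld1 (r = 0.996), were read by probes with a TG repeat, of 40 and 32 bases. The 32 probes had a median level of 2.60 on the 4c array of experiment 3, against 1.38 on the 2c array of that experiment. What the repeat contributes to the Prox1 signal was not tested.

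**Figure D3:**
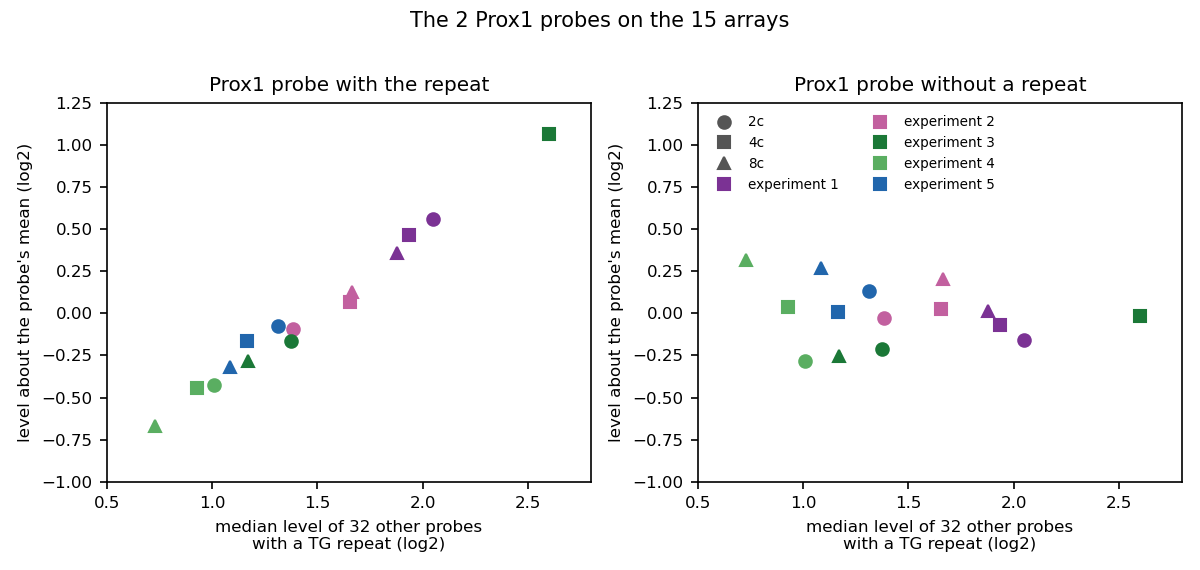
Level of each Prox1 probe about its own mean (log2) against the median level of 32 other probes with a TG repeat (log2), 1 point for each of the 15 arrays, with symbols for the fraction and colours for the experiment. The probe with the repeat climbs along the axis up to the 4c array of experiment 3 at 2.60, and the probe without a repeat shows no such course.

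Gata4 encodes a zinc finger factor of the liver bud that sinusoidal endothelial cells also express in the adult. Its levels were -1.88, -2.82, -2.62, -2.14 and -2.16 in 2c cells, -2.07, -2.92, -2.91, -2.20 and -2.12 in 4c cells, and -2.03, -2.99, -2.24, -2.51 and -2.20 in 8c cells. Experiment 2 was the lowest in every fraction, and 8c was below 2c in 4 of 5 experiments, with a difference of -0.07 (SE 0.120, 95% interval -0.34 to 0.20, limma adjusted p = 0.845). Markers of other liver cells were also read on these arrays, and they are given over all measured genes of each list, with no test, because some passed the filter on dim probes mainly through the 2c arrays. Of 15 sinusoidal endothelial markers, 4 to 11 were well above background on an 8c array and 9 to 14 on a 2c array. The median level of that list ran from -7.59 to -5.54 on the 8c arrays and from -4.96 to -3.36 on the 2c arrays, while its summed level, on a linear scale where 1 is the 75th percentile, ran from 3.11 to 5.52 in 8c and from 3.61 to 5.83 in 2c. For 16 Kupffer cell markers the median ran from -7.69 to -5.03 in 8c and from -4.92 to -1.32 in 2c, and for 15 stellate cell markers from -7.89 to -6.54 in 8c and from -5.23 to -2.50 in 2c. The ranges of the median did not overlap for these 3 cell types. For 10 cholangiocyte markers they did, with -7.79 to -6.90 in 8c and -7.53 to -6.58 in 2c, and 3 to 4 of the 10 were well above background in either fraction. The summed level of the cholangiocyte list ran from 0.43 to 0.61 in 8c and also from 0.43 to 0.61 in 2c. Epcam, the epithelial adhesion molecule of bile duct cells, averaged -4.43 ± 0.42 in 8c cells and -3.65 ± 0.59 in 2c cells (SD, n = 5 each). It is 1 of the 10 and does not stand for that list. The part of these cells in the Gata4, Prox1 and Onecut1 levels was not tested.

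By the probe that stands for each gene, differences between experiments outweighed those between fractions for every member. The experiment took 92.7% of the variance of Hnf4a over the 15 arrays, 90.2% of that of Cebpa and 95.3% of that of Onecut1. Gata4 had 82.4%, Foxa2 80.8%, Foxa1 76.7%, Cebpb 75.2% and Foxa3 70.6%, and the Prox1 repeat probe had the lowest share, 57.6%. The members' median was 80.8%, beside a median of 54.6% over all tested features and of 57.5% over features detected above background throughout. The fraction took between 0.551% for Onecut1 and 11.3% for the Prox1 repeat probe, with a members' median of 4.31% and a median of 9.37% over all tested features. Shares were not computed for the other probes of a gene. The Prox1 probe without a repeat averaged 1.41 in 2c, 1.52 in 4c and 1.63 in 8c cells, and its shares may differ from those of the repeat probe. These shares are a description of the arrays and were not tested.

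**Figure D4:**
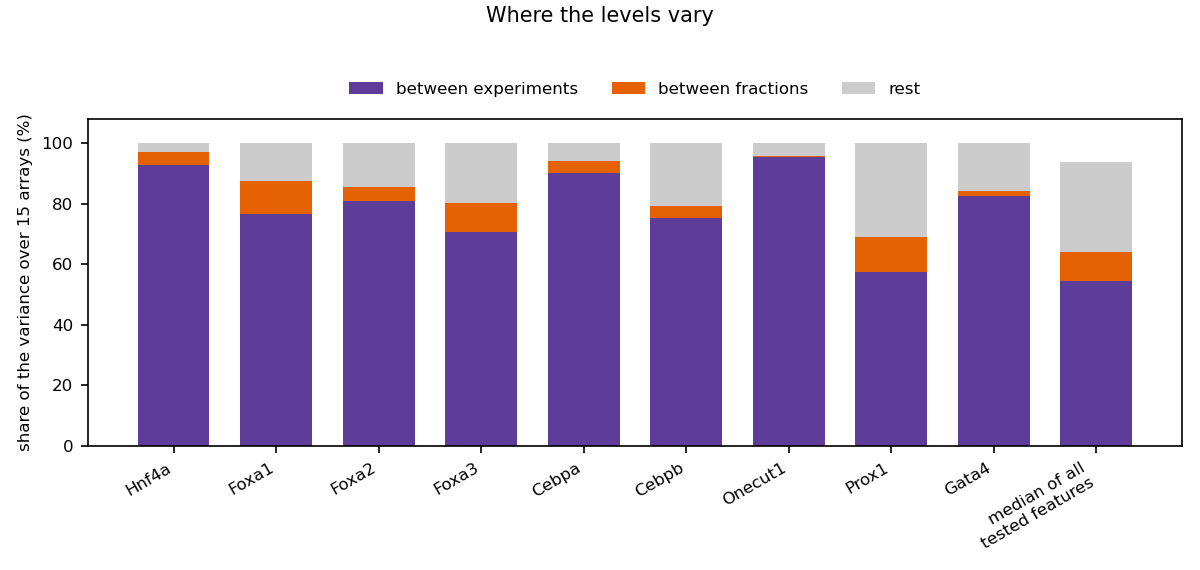
Share of the variance over the 15 arrays (%) that lies between the 5 experiments, between the 3 fractions and in the rest, for each factor and as the median of all tested features, where each share is a median of its own and the bar does not sum to 100. Each factor is shown by the probe that stands for it. The part between experiments runs from 57.6% for the Prox1 repeat probe to 95.3% for Onecut1, against a median of 54.6% over all features.

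The experiments differed in age, and the members' means were compared between the 2 experiments of 12 and 14 weeks and the 3 of 5 and 6 weeks. The test is limited by its 5 experiments: 0 of 9 members and 0% of all features passed (limma on the experiment means, all features adjusted together). At an unadjusted p under 0.05 there was 1 of 9 members, Foxa1, and 13.2% of all features. Foxa1 averaged -1.69 and -1.77 in the older experiments, against -2.19, -2.31 and -2.02 in the younger ones, a difference of 0.45 (SE 0.144, unadjusted p = 0.0243, adjusted p = 0.319). Foxa3 averaged -4.22 and -4.62 in the older experiments, against -4.18, -2.11 and -3.22 in the younger ones, a difference of -1.25 (SE 0.594, adjusted p = 0.434). Hnf4a averaged 2.36 and 2.78 in the older experiments, against 2.89, 2.78 and 3.00 in the younger ones, a difference of -0.32 (adjusted p = 0.473). The older and younger means did not overlap for these 3 of 9 members, beside 33.2% of all features, and for Hnf4a the nearest means are equal when rounded to 2 decimals. Without experiment 1 the Hnf4a difference was -0.11, and without experiment 4 the Foxa3 difference was -0.72. Age, the scan slide and pancreatic acinar transcripts went together: experiments 1 and 2 lay on slide 1 with 2 arrays of experiment 3, the other arrays lay on slide 2, and 5 of the 6 arrays of experiments 1 and 2 carried acinar transcripts above a median level of -4, against 1 of the 9 arrays of the younger experiments. Their parts in these differences cannot be told apart. On the 2c array of experiment 2 the summed level of 25 acinar markers was 1382, beside 1194 for the 12 hepatocyte markers. These sums run over different probes and unequal numbers of genes, so they do not rank the amounts of acinar and hepatocyte RNA. The acinar median also differed between fractions, at 1.93, -7.70 and -1.04 on the 2c, 4c and 8c arrays of experiment 1. The part of acinar transcripts in the differences between fractions was not tested. An interaction of age class with the 8c against 2c difference, tested in limma, passed for 0 of 9 members and 0% of all features, and at an unadjusted p under 0.05 for 0 of 9 and 4.67%. The estimates, older minus younger, ran from -0.26 for Foxa2 to 0.95 for Foxa3.

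**Figure D5:**
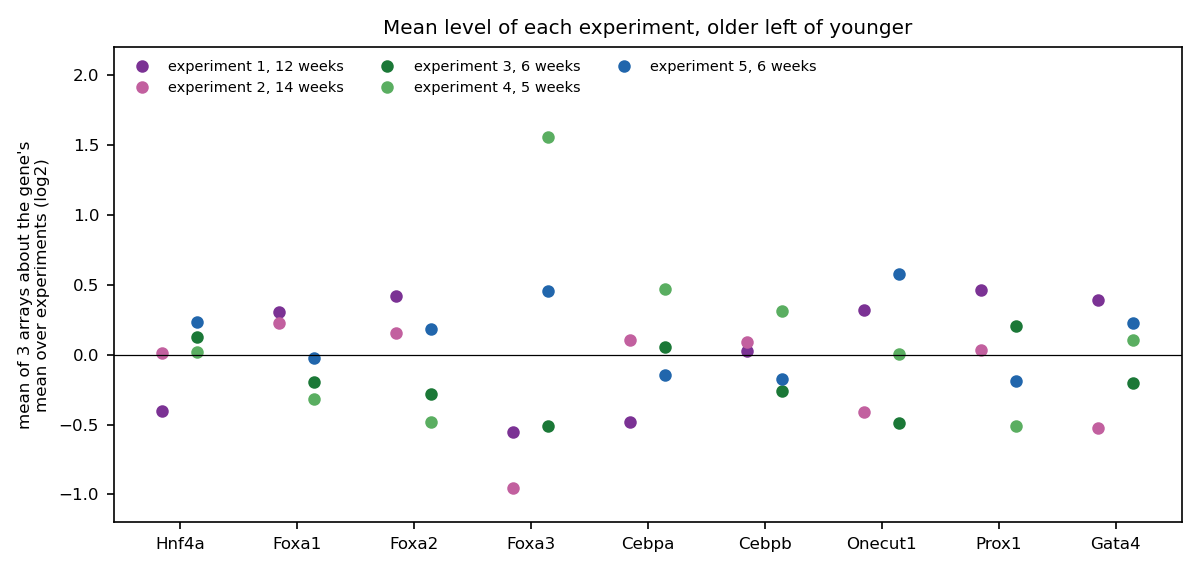
Mean level of the 3 arrays of an experiment about the gene's mean over experiments (log2), older experiments (12 and 14 weeks) left of younger ones (5 and 6 weeks) for each factor. The older means lie above the younger ones for Foxa1 and below them for Hnf4a and Foxa3, and the groups overlap for the other 6 factors.

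Other genes of the network were read in the same fit. Of 42 tested other hepatocyte transcription factors, 0 rose and 1 fell in 8c against 2c cells, beside 0.809% of all features higher and 1.56% lower, with a list median of 0.03 beside -0.02 over all features. That count is close to the background. The one was Nr1i3, the xenobiotic-sensing nuclear receptor CAR, with levels of -4.71, -4.85, -3.44, -2.09 and -2.90 in 8c cells and of -3.10, -2.50, -2.32, -1.27 and -2.20 in 2c cells. It was lower in 8c in every experiment, 2.50-fold (log2 difference -1.32, SE 0.206, limma adjusted p = 0.00922), and its levels in the 2 fractions overlapped. Without experiment 1 its difference was -1.25 with an adjusted p of 0.0703, and without experiments 1 and 2 it was -0.88 with an adjusted p of 0.102.

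Genes known as targets of the factors were counted in the same way. Of 19 HNF4A targets, 0 rose and 0 fell in 8c against 2c cells (list median 0.05), where 2.37% of all features passed, and Apob and Apoa1, which encode the main proteins of low- and high-density lipoprotein, differed by 0.04 and -0.03. Of 9 FOXA targets, 0 passed (list median 0.02), with Tat, tyrosine aminotransferase, at 0.01 and Igfbp1, an insulin-like growth factor binding protein, at 0.17. Of 11 C/EBP targets, 1 rose and 0 fell (list median 0.01), beside 0.809% of all features higher. That one was Hamp, the iron hormone hepcidin, with levels of 5.18, 5.88, 5.75, 4.86 and 5.44 in 8c cells and of 4.38, 5.03, 5.06, 4.48 and 5.06 in 2c cells. It was higher in 8c in every experiment, 1.54-fold (log2 difference 0.62, SE 0.089, limma adjusted p = 0.00633), and without experiment 1 it was 0.57 with an adjusted p of 0.0506. For 4c against 2c, 0 genes of these 4 lists passed, beside 0.264% of all features higher and 1.01% lower, and for 8c against 4c also 0, beside 0.639% higher and 0.0117% lower. Igfbp1 was nearest for 4c against 2c, at 0.36 with an adjusted p of 0.0585.

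The genes whose course over the 15 arrays was most like that of a member, after the mean of each experiment was removed, were sought among 9457 features that were well above background on all arrays. The closest were Cyp2f4 for Hnf4a (r = 0.94), Uqcrb for Foxa1 (r = 0.97), Car3 for Foxa2 (r = 0.94) and Epn1 for Foxa3 (r = 0.98). For the others they were Cebpz for Cebpa (r = 0.94), Coa5 for Cebpb (r = 0.96), Ppp1r2 for Onecut1 (r = 0.97) and Usp19 for Gata4 (r = 0.93). The second were Slc25a25 for Hnf4a, Mrps33 for Foxa1, Cebpz for Foxa2, Fxr2 for Foxa3, Itpa for Cebpa, Slc39a12 for Cebpb, LOC102554057 for Onecut1 and Psme3ip1 for Gata4, with r between 0.91 and 0.98. Each r was picked as the highest of 9457, and the arrays share their experiments and outlying libraries, so the values describe these arrays only. Among the members themselves, Foxa2 and Cebpa had an r of 0.88, Onecut1 and the Prox1 repeat probe 0.87, and Cebpb and that probe 0.86. In level, with the experiment means kept, the same pairs had r of -0.63, 0.04 and -0.05. Foxa2 and Cebpa were both furthest above the 2c array in 8c cells in experiment 4, by 0.65 and 0.40. The last 2 pairs share the high 4c array of experiment 3, where Cebpb, Onecut1 and the Prox1 repeat probe were 0.54, 0.38 and 1.23 above the 2c array.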

How the data were processed

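RNA of sorted hepatocytes was hybridised to 15 one-colour Agilent arrays. Per the file headers, spots were read with Feature Extraction 11.5.1.1, while the submitters' processing notes name 10.7.3.1. The deposited scanner files give each spot's intensity on a linear scale, and the authors' processed signal is background-subtracted with no normalization between arrays. No spot was saturated, and 39.55% to 47.39% of probes were well above background, a software flag.

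Control and outlier spots were left out, spots of a probe averaged, log2 taken and each array's 75th percentile subtracted. Probes well above background on at least 5 arrays were tested, and the brightest stood for a gene. limma 3.58.1 in R 4.3.3 was fitted to all arrays with the experiment as a block, since its 3 fractions came from 1 experiment and arrays of an experiment deviated together (median r 0.67 over 15 pairs, lowest 0.11). The labels do not say whether an experiment is 1 animal. P-values are two-sided, adjusted after Benjamini and Hochberg over 17055 features, and the fit was tested on simulated data. Arrays lay on 2 slides, each scanned in 1 run. The deposited value table is a linear signal, 99.0% to 99.3% of its values equal to the processed intensity within log2 0.01. Its scale and centring follow from that match, and its column medians ran from 1.95 to 2.96 on the log2 scale.

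The members, lists, naming rule and alternatives were chosen with earlier results of these data known. Named were all members with every probe, up to 4 passing genes of a list by adjusted p or else its first 2, and the 2 genes most like each member. Some genes that this rule names are not reported here.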

Additional observations from a re-analysis of the deposited data

Results flagged for a closer look

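Over 48 groups of 5 arrays (16 probes in 3 fractions), 3 held an array far from the other 4 by Dixon's criterion, and chance gives about 1 in 20. The 4c array of experiment 1 had an Hnf4a level of 2.352, against 2.82 to 2.98 on the other 4c arrays; the same experiment was lowest in the 2c and 8c fractions too. The 2c array of experiment 4 read -1.2498 with the middle Hnf4a probe, against -1.98 to -1.87 on the other 2c arrays. The 2c array of experiment 5 read -3.1871 with the second Foxa1 probe, against -3.54 to -3.46 on the other 2c arrays.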

How the results depend on the processing

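The counts of members that passed were 0 under every alternative run: 21 processing and array alternatives for each pair of fractions, every probe on its own, 9 for age and 2 for the age dependence. Of the alternatives, 2 leave out the 4c array of experiment 3 and the 2c array of experiment 4, and these were, like the single probes, chosen after seeing the data. Without the replicate block, which ignores the pairing by experiment, 0 of 9 members passed and the calls over all features were 39, 3 and 0, in place of 404, 217 and 111. Over all alternatives these calls ran from 0 to 528, 0 to 551 and 0 to 128, and with 1 experiment left out from 102 to 274, 3 to 185 and 51 to 128. With the 75th percentile over all probes, 225 rose and 192 fell for 8c against 2c, in place of 138 and 266, as the median of all features moved to 0.06.

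Of 588 member differences under an alternative, 512 kept their sign, 76 turned and 0 passed. The sign of Hnf4a, Foxa1 and Cebpa for 8c against 2c held in 20 of 20 alternatives other than the choice of probe (0.06 to 0.19, 0.08 to 0.38 and 0.05 to 0.20). For 4c against 2c the sign held in the same way for Hnf4a, Foxa2, Foxa3, Cebpa and Gata4. For 8c against 4c it held for Hnf4a, Foxa1, Foxa3 and Prox1. These alternatives reuse the same arrays and probes. Hnf4a by its first probe was higher in 8c in 5 of 5 experiments, so leaving out experiments could not turn its sign. By the middle probe the Hnf4a difference for 8c against 2c was -0.18. The cause of the turns was not tested. The turned values are for 8c against 2c unless another pair is named. With the 75th percentile over all probes, Cebpb was at 0.069, Onecut1 at 0.033, Gata4 at 0.0097 and Foxa1 (4c against 2c) at 0.065. Scaled to the median, Cebpb was at 0.031 and Foxa1 (4c against 2c) at 0.028, and Foxa1 was at 0.048 after quantile normalization. Normexp gave Foxa3 -0.21 and Cebpb 0.0038. The mean of a gene's probes gave Cebpa -0.023, Cebpb 0.028, Onecut1 0.090 and Prox1 0.052, with Hnf4a -0.0013 and Foxa1 0.067 for 4c against 2c. The slide as the block gave Foxa3 -0.30 and Prox1 0.0072, and Gata4 -0.013 for 8c against 4c. Within slide 1, Cebpb, Onecut1 and Prox1 were at 0.041, 0.039 and 0.21. Within slide 2, Foxa3 was at -0.85 and Cebpb at 0.0011; for 4c against 2c Foxa1, Cebpb, Onecut1 and Prox1 were at 0.16, -0.043, -0.047 and -0.053; for 8c against 4c Foxa2, Cebpa, Cebpb and Gata4 were at 0.092, 0.051, 0.044 and -0.19. Without the arrays with acinar transcripts, Foxa3 and Cebpb were at -0.76 and 0.098, Foxa1 (4c against 2c) at 0.024, and Foxa2, Cebpa and Gata4 (8c against 4c) at 0.069, 0.046 and -0.15. Without experiments 1 and 2, Foxa3 and Cebpb were at -0.35 and 0.014 and Foxa1 (4c against 2c) at 0.024. Without the 4c array of experiment 3, Foxa1, Cebpb, Onecut1 and Prox1 were at 0.027, -0.011, -0.051 and -0.011 for 4c against 2c, and Cebpb, Onecut1 and Gata4 at 0.0008, 0.0040 and -0.047 for 8c against 4c. Without the 2c array of experiment 4, Cebpb was at 0.029. Other probes gave Prox1 0.22 and, for 8c against 4c, 0.11. The middle Hnf4a probe gave -0.18, -0.039 (4c against 2c) and -0.14 (8c against 4c), and the 5′ probe -0.025 (4c against 2c). Those of Cebpb, Onecut1 and Cebpa gave 0.065, 0.23 and -0.17, that of Cebpa -0.020 for 4c against 2c, and that of Foxa1 0.14 (4c against 2c) and -0.036 (8c against 4c).

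With 1 experiment left out in turn, 8c against 2c ran from -0.016 to 0.20 for Foxa2, -0.20 to 0.48 for Foxa3, -0.040 to 0.014 for Cebpb and -0.18 to 0.0054 for Gata4. For 4c against 2c it ran from -0.066 to 0.059 for Foxa1, -0.018 to 0.15 for Cebpb, -0.059 to 0.080 for Onecut1 and -0.011 to 0.32 for Prox1. For 8c against 4c it ran from -0.13 to 0.013 for Foxa2, -0.053 to 0.010 for Cebpa and -0.10 to 0.14 for Gata4. The age difference ran from -0.013 to 0.27 for Cebpb, -0.44 to 0.29 for Onecut1 and -0.57 to 0.35 for Gata4, and 4 of 81 age values turned. Nr1i3 passed in 15 and Hamp in 14 of 21 alternatives, and Cyp2e1 in 7.

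The number of arrays limits the precision: over all features the smallest difference that passed for 8c against 2c was 0.26, larger than every member's estimate. For 4c against 2c and 8c against 4c it was 0.28 and 0.33. Foxa3 (0.72 and -0.69) and, for 8c against 4c, Prox1 (-0.35) exceeded these in size without passing. Their SEs were 0.372 and 0.195, beside a median of 0.123 over all features. A probe reads 60 bases, and probes of a gene disagreed in sign in at least 1 pair of fractions for Hnf4a, Foxa1, Cebpa, Onecut1, Cebpb and Prox1.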
